A study of Homo sapiens with 60 samples.

Results

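The comparison described here is the step from day 9 to day 12 in the differentiation of SH-SY5Y cells that received no lead (Pb). It rests on the 3 libraries of day 12 and the 3 libraries of day 9 at 0 µM Pb, which were picked by their sample titles and make up 6 of the 60 libraries of the series. The other 54 libraries, from days 6, 15 and 18 without Pb and from all 5 days with 0.16, 1.26 or 10 µM Pb, served to estimate the spread between dishes and to follow the changed genes before, after and beside the step. Pb had been added from day 5 onward in the exposed dishes, and both groups of the step share the cell line, the passage (39) and the differentiation protocol, which the labels give only by reference to a published procedure.

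SH-SY5Y is a human neuroblastoma line, a tumour derivative of the sympathoadrenal lineage, and its cells stop dividing and grow neurites when they are given retinoic acid and neurotrophic factors. The published procedure moves the cells, within this interval, onto dishes coated with extracellular matrix and into a neuronal medium with BDNF, a cell-permeable cAMP analogue and retinoic acid. The labels do not give the day of that move, so the day, the medium and the coating cannot be told apart in what follows. A sympathetic neuron makes noradrenaline, packs it with peptides into dense-core granules, and folds and ships the granule proteins through the endoplasmic reticulum (ER). Each replicate was 1 dish of 15 cm. The p-values therefore measure the spread between dishes of 1 line at 1 passage.

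The 6 libraries held 25.9, 32.4 and 25.0 M assigned reads at day 12 (M, 1e+06), against 35.2, 30.9 and 16.6 M at day 9. Their library names all carry the same prefix, which those of day 18 do not. Levels are given as assigned reads scaled to a sum of 1e+06 per library (CPM), and changes as log2 of CPM + 1, day 12 minus day 9, with the standard error (SE) of the model. The ± beside a mean CPM is the standard deviation (SD) of 3 libraries. Since CPM are not scaled by transcript length, they rank samples for a gene and not genes. The sympathoadrenal markers were in place on both days: PHOX2A had 1438 CPM on average at day 12, against 1198 CPM at day 9, and GATA2 had 961 CPM, against 1290 CPM.

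Of 15263 genes tested, 8303 (54.4%) had an adjusted p under 0.05, with 3167 (20.7%) higher and 5136 (33.7%) lower at day 12. Among these, 684 were higher and 490 lower by at least 1 on the log2 scale, so the large changes were more often rises although the calls as a whole were more often falls. The median change of all genes was -0.10 as deposited. It was -0.0038 after median-ratio rescaling of the libraries, a shift of about the same size for every gene, and the calls were then 4073 higher and 3846 lower. The share of higher calls thus moved from 38.1% to 51.4%, and small falls in the text stand against that shift. Over 14132 genes with a matched transcript, the change had Spearman's rho of -0.108 with transcript length and 0.127 with GC content, and correction for both left 7925 calls, 3582 higher and 4343 lower. In bulk RNA, more or fewer cells of a kind and more or less RNA per cell cannot be told apart, which holds for every change below. The plot of all genes shows the lists described first, which sit apart from the bulk.

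**Figure D1:**
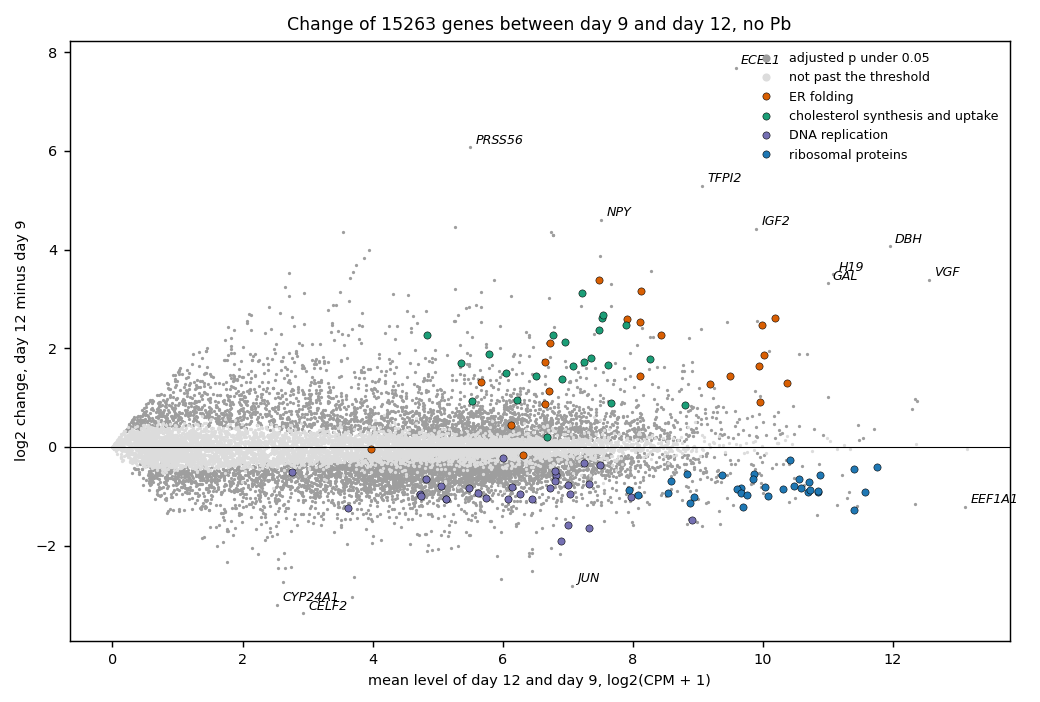
Log2 change (day 12 minus day 9, vertical axis) of 15263 genes against their mean level as log2(CPM + 1), with genes past the threshold in dark grey. ER folding (orange) and cholesterol genes (green) sit nearly all above 0, DNA replication (purple) and ribosomal protein genes (blue) below 0.

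On the scale of log2(CPM + 1) the gene with the largest rise was ECEL1 (chromosome 2, 232479827 to 232487834), a neuronal relative of the endothelin-converting enzymes. It had 1052, 1779.5 and 1738 CPM in the 3 libraries of day 12, against 5.002, 7.58 and 6.32 CPM in those of day 9, a log2 change of 7.68 ± 0.26 (adjusted p = 1.68e-29). All libraries of day 12 lay far above those of day 9, and replicate 1 was the lowest of day 12. PRSS56, a trypsin-like serine protease, had 76.3, 102 and 86.02 CPM at day 12, against 0.227, 0.292 and 0.421 CPM at day 9. TFPI2 (chromosome 7, 93885396 to 93890753), a secreted inhibitor of serine proteases, had 1014, 984 and 1127 CPM at day 12, against 24.3, 29.9 and 22.9 CPM at day 9 (log2 change 5.29 ± 0.076). The days were again far apart in both genes, and by the ratio of mean CPM PRSS56 (281-fold) exceeded ECEL1 (242-fold).

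Among the 12 largest rises, NPY (chromosome 7, 24284190 to 24291862), the neuropeptide Y of sympathetic neurons, had 352, 341 and 353 CPM at day 12, against 11.9, 13.03 and 15.2 CPM at day 9 (log2 change 4.61 ± 0.092, adjusted p = 1.34e-38). IGF2, a fetal growth factor, had 1637, 1925 and 1883 CPM at day 12, against 67.5, 97.2 and 89.4 CPM at day 9. CGA, the common alpha subunit of the pituitary and placental glycoprotein hormones, had 24.1, 20.4 and 19.2 CPM at day 12, against 0.0853, 0.0324 and 0.120 CPM at day 9. In all of them the lowest library of day 12 exceeded the highest of day 9, which the rule for naming them required. Over all 15263 genes tested, 9342 (61.2%) had no overlap between the days, in either direction. CGA was close to silent at day 9, where 3 reads correspond to 0.0853 to 0.181 CPM, so its log2 change of 4.36 ± 0.12 depends on the added 1 CPM.

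DBH (chromosome 9, 133636363 to 133659329), the enzyme that turns dopamine into noradrenaline, had 7919, 7364 and 7076 CPM at day 12, against 454, 444 and 432 CPM at day 9 (log2 change 4.07 ± 0.065, adjusted p = 2.12e-42), a 16.8-fold difference of the means. ITPKB, a kinase of inositol trisphosphate, rose by 4.46 ± 0.20, TENT5A, a poly(A) polymerase known for its action on mRNAs of secreted proteins, by 4.35 ± 0.10, and CDH15, a cadherin first described in muscle, by 3.99 ± 0.14. PDE10A, a phosphodiesterase of cyclic nucleotides, and LINC00473, a long RNA known to be induced by cAMP, both had 208, 201 and 211 CPM at day 12, against 10.6, 8.85 and 9.45 CPM at day 9. The 2 rows are identical in all 60 libraries, and LINC00473 (chromosome 6, 165924048 to 165988039) lies inside the annotated span of PDE10A, so they are 1 measurement whose reads cannot be assigned to either gene. Among the kept genes, 231 stood in 112 such groups of identical rows, and no other gene named here was among them.

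**Figure D2:**
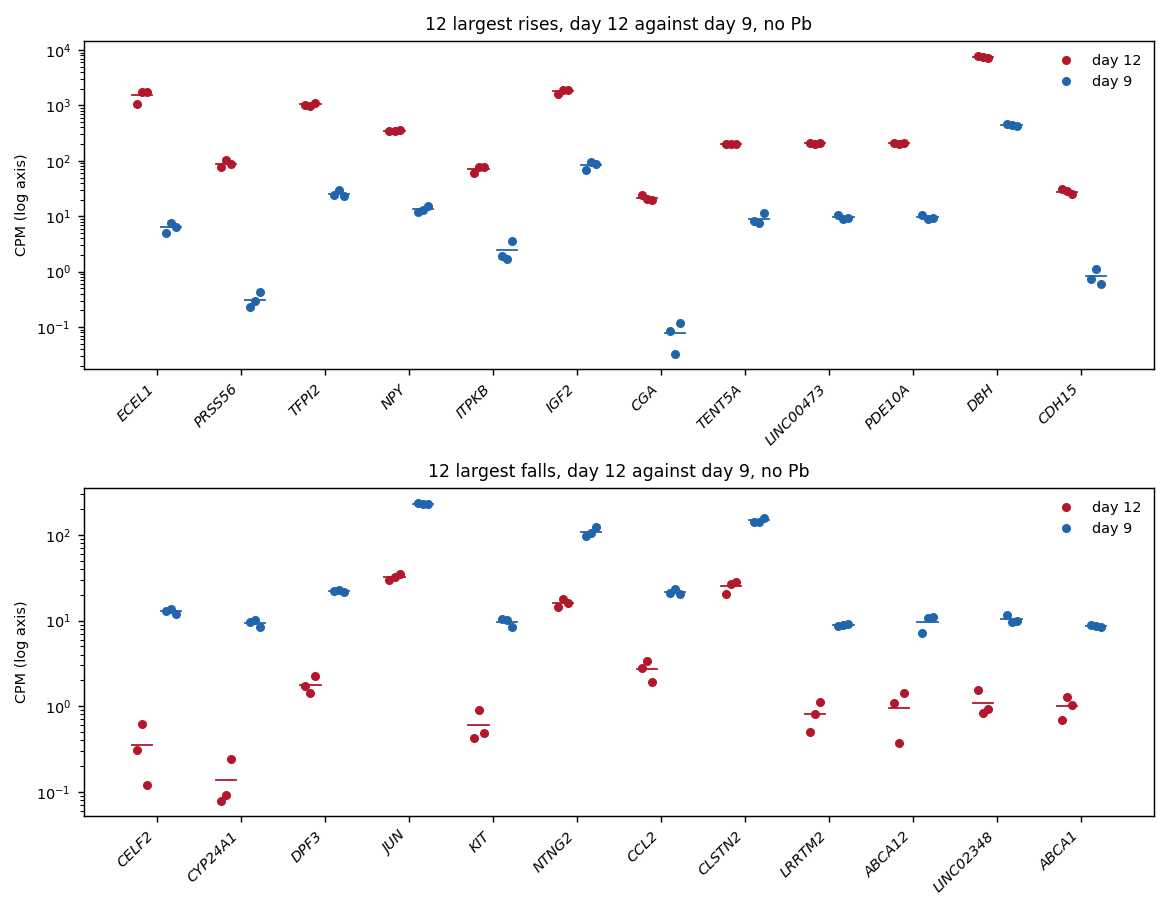
CPM on a log axis in each of the 3 libraries of day 12 (red) and day 9 (blue), with the mean as a line, for the 12 largest rises and the 12 largest falls. The days do not overlap for any of the 24, which the rule for naming them required.

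The 12 largest falls included regulators, adhesion proteins and lipid transporters. CELF2, an RNA-binding regulator of splicing, had 0.309, 0.617 and 0.120 CPM at day 12, against 12.8, 13.7 and 11.98 CPM at day 9 (log2 change -3.37 ± 0.18, adjusted p = 2.39e-21). CYP24A1, which degrades active vitamin D, had 0.0773, 0.0925 and 0.240 CPM at day 12, against 9.63, 10.1 and 8.49 CPM at day 9. For both, the libraries of day 12 lay under 1 CPM and well below those of day 9. JUN (chromosome 1, 58780791 to 58784047), a subunit of the AP-1 factor, had 29.7, 32.2 and 35.2 CPM at day 12, against 237, 229 and 230.4 CPM at day 9 (log2 change -2.81 ± 0.15, adjusted p = 3.24e-21). KIT, the receptor of stem cell factor, fell by 2.75 (SE 0.26), and DPF3, a subunit of a chromatin remodeller, by 3.05 (SE 0.13).

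Synaptic adhesion proteins stood beside them. NTNG2, a netrin-G, had 14.6, 17.6 and 16.04 CPM at day 12, against 96.7, 105 and 123 CPM at day 9, and CLSTN2, a calsyntenin, had 20.6, 27.1 and 28.5 CPM, against 141, 144 and 160.0 CPM. LRRTM2, a postsynaptic partner of neurexins, had 0.502, 0.802 and 1.12 CPM at day 12, against 8.75, 8.82 and 9.09 CPM at day 9. The lipid exporters ABCA1 and ABCA12 fell by 2.27 (SE 0.14) and 2.46 (SE 0.17), and the chemokine CCL2 by 2.63 (SE 0.18). LINC02348, an RNA whose function is not given here, fell by 2.44 (SE 0.14). None of these groups overlapped, as the rule for naming them demanded.

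By the difference in CPM, which favours abundant mRNAs, genes of secreted proteins and actins led the gains and genes of translation led the losses. VGF (chromosome 7, 101162509 to 101169952), the precursor of several secreted neuronal peptides, gained most, with 9497, 11437 and 11983 CPM at day 12, against 1016, 976 and 1139 CPM at day 9 (log2 change 3.39 ± 0.21). DBH came next, and H19 (chromosome 11, 1995176 to 2001266), an imprinted long RNA neighbouring IGF2, had 4075, 3987 and 3851 CPM at day 12, against 337, 358 and 360.2 CPM at day 9 (log2 change 3.49 ± 0.12). GAL, the neuropeptide galanin, had 3684, 3739 and 3698 CPM at day 12, against 350.3, 391 and 372 CPM at day 9. The 2 cytoplasmic actins gained as well, ACTB with a log2 change of 0.97 ± 0.056 and ACTG1 with 0.93 ± 0.052. The largest losses were the translation elongation factors EEF1A1, with 5347, 5313 and 5253 CPM at day 12, against 12525, 12672 and 11774 CPM at day 9 (log2 change -1.22 ± 0.046), and EEF2, with 3279, 3135 and 3202 CPM, against 7785, 6972 and 6826 CPM. They were followed by the ribosomal protein genes RPL4, RPL13A, RPL13 and RPS4X, which fell by 1.27 (SE 0.051), 1.19 (SE 0.081), 0.91 (SE 0.069) and 1.17 (SE 0.067).

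Gene lists were read against all genes, of which 20.7% were called higher and 33.7% lower. Counts near these shares describe a list and are not a result about it. The plot of the lists gives these shares for all 50 of them, and the text takes them by function. 

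**Figure D3:**
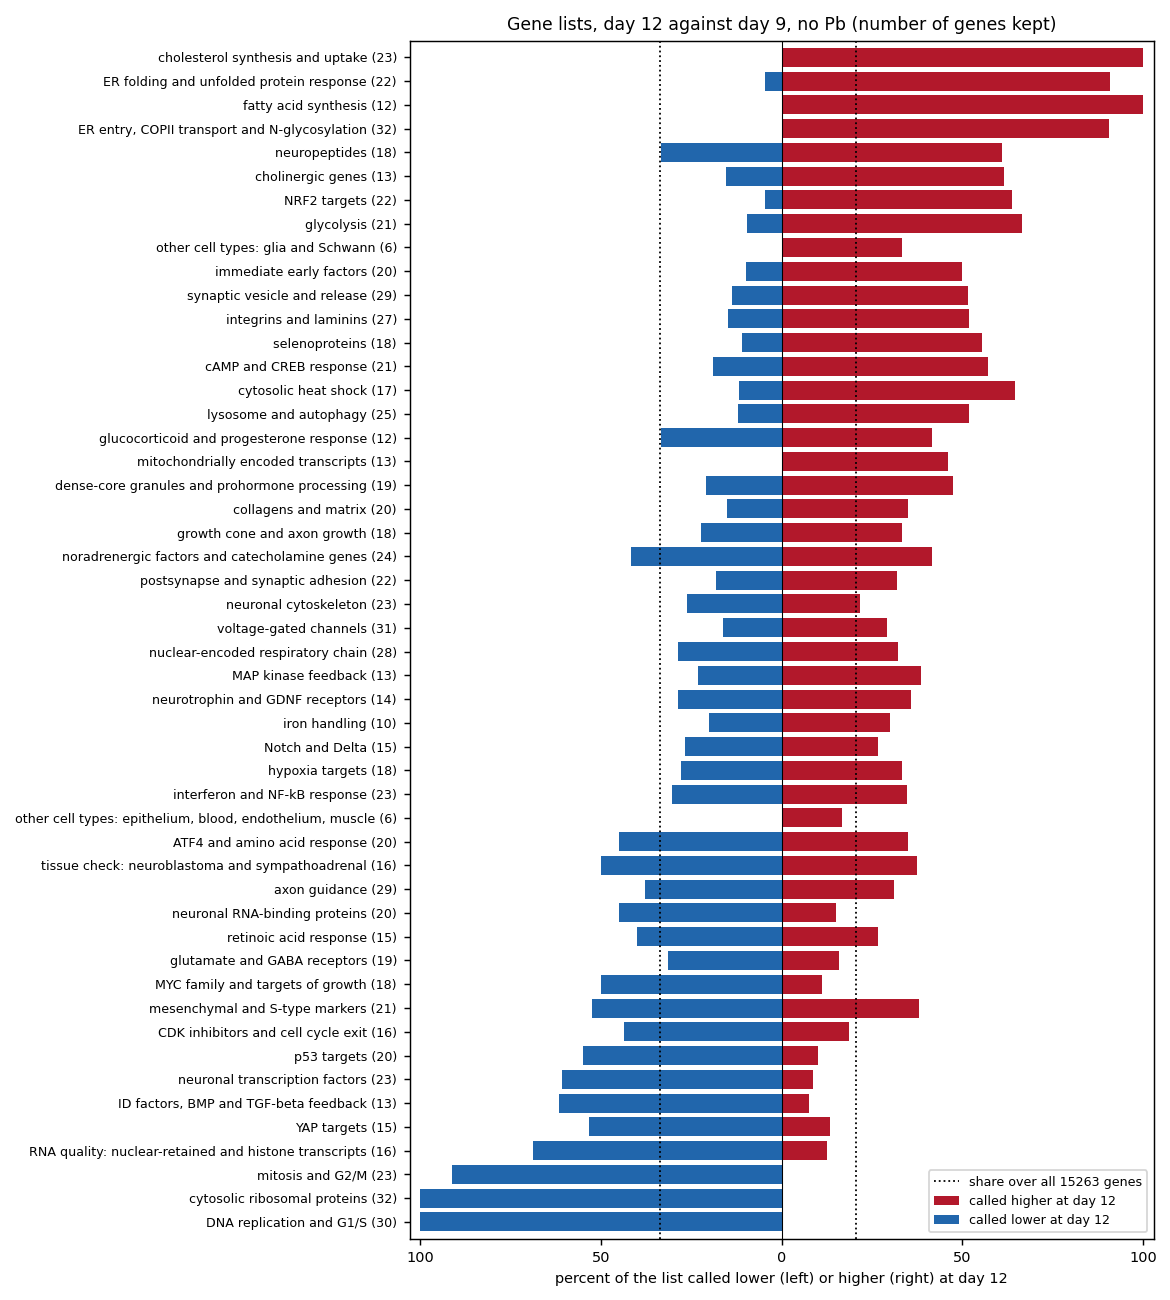
Percent of each of 50 gene lists called higher (red, right) or lower (blue, left) at day 12 against day 9, ordered by median change, with the number of kept genes in brackets; dotted lines mark the shares over all genes, 20.7% and 33.7%. The lipid and ER lists fill the right side, replication, ribosomal and mitosis lists the left.

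The protein-folding machinery of the ER rose nearly as a block. Unfolded protein in the ER activates 3 sensors, of which ATF6 and the product of XBP1 mRNA splicing bind the promoters of chaperone genes. Of 22 ER folding and unfolded protein response genes, 20 were called higher and 1 lower, with a median log2 change of 1.54. HSPA5 (chromosome 9, 125234853 to 125241343), the main ER chaperone, also called BiP, had 2025, 1976 and 2006 CPM at day 12, against 331, 325 and 319 CPM at day 9 (log2 change 2.62 ± 0.047, adjusted p = 1.92e-40). The spread within each day was small against the 6.16-fold difference between days.

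Its partners moved with it. PDIA4, a disulfide isomerase, had 1764, 1711 and 1659.6 CPM at day 12, against 320.5, 309 and 290.2 CPM at day 9, and DNAJB11, a co-chaperone of HSPA5, had 415, 395 and 429 CPM, against 67.6, 70.9 and 64.995 CPM. SDF2L1, a further partner of the HSPA5 complex, had 354, 333 and 285 CPM at day 12, against 27.5, 29.95 and 32.7 CPM at day 9 (log2 change 3.39 ± 0.082), and PDIA3, the isomerase of glycoproteins, rose by 1.64 ± 0.040. The sensors in the list were not called higher: ATF6 had a log2 change of -0.17 ± 0.056, a call that was lost after rescaling, and ERN1, which encodes IRE1, one of -0.042 ± 0.14 with an adjusted p of 0.817 (both picked after their values were seen). DDIT3, the stress factor CHOP, had 81.5, 85.2 and 78.1 CPM at day 12, against 26.2, 26.7 and 26.3 CPM at day 9 (log2 change 1.59 ± 0.10).

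The promoters of these genes are shown because 9 of the 21 members with a promoter in RefSeq carry the letters of an ER stress response element. Both forms of it were searched on both strands in the 250 bases before and 50 bases after each annotated start: CCAAT and CCACG with 9 bases between them (ERSE), and ATTGG and CCACG with 1 base between them (ERSE-II). They share the letters CCACG, and a match on the other strand reads CGTGG first and then ATTGG or CCAAT. Of 11976 kept genes with a promoter, 27 (0.225%) held either form, and 9 of these 27 were members of the list, which is 42.9% of its promoters. Stretches of GRCh38.p14 follow 5′ to 3′ on the strand of the gene, with matches in capitals. They are HSPA5 (chr9:125241361-125241439, minus strand), HSP90B1 (chr12:103930186-103930369, plus), CALR (chr19:12938359-12938432, plus), CANX (chr5:179698748-179698826, plus), CRELD2 (chr22:49918524-49918602, plus) and XBP1 (chr22:28800573-28800651, minus) for ERSE, and SDF2L1 (chr22:21642084-21642154, plus), HYOU1 (chr11:119057244-119057420, minus) and HERPUD1 (chr16:56931995-56932065, plus) for ERSE-II.
HSPA5: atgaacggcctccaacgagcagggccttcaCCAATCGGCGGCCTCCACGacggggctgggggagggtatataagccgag
HSP90B1: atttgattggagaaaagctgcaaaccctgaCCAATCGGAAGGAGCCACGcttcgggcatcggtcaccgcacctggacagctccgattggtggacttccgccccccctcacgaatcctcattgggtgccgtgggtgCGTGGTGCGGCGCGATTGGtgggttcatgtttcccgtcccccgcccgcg
CALR: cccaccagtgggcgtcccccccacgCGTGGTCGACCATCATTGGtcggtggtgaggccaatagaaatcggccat
CANX: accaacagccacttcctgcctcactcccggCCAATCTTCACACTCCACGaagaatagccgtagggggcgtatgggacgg
CRELD2: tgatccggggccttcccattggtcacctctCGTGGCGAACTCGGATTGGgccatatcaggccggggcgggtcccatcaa
XBP1: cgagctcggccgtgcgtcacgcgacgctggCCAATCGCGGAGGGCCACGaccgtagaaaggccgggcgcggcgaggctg
SDF2L1: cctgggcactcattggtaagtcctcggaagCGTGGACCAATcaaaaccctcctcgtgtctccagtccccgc
HYOU1: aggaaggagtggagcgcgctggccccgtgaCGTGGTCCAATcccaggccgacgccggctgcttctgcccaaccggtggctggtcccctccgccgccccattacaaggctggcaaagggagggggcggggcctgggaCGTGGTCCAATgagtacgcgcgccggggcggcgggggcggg
HERPUD1: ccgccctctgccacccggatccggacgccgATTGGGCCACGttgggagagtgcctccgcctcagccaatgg

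The 9 genes were all called higher, by 0.90 for CANX, 1.29 for CALR, 1.43 for XBP1, 1.72 for HERPUD1, 1.87 for HSP90B1, 2.28 for HYOU1, 2.62 for HSPA5, 3.15 for CRELD2 and 3.39 for SDF2L1 on the log2 scale. Since 20 of the 22 list members were called higher, the direction of these 9 tells nothing about the letters. HSP90B1 and HYOU1 each hold 2 matches, and the others 1. Over all 27 genes with either form, 18 were called higher and 3 lower, with a median of 0.79. These counts include the 9 list members. Of the 11976 genes with a promoter, 2501 were called higher and 4112 lower. Genes outside the list that held a form and rose were ERO1B, SERP1, FICD, ALG12, TMEM120A, TRIM5, SETD3, NUCB1 and PLS3, and EIF2A, ZNF143 and RAD9A fell. LOC105374174, ZNF17, CNKSR1, CLEC4F, SHCBP1 and GYS1 held a form and were not called. A match is a description of the letters, and the other 12 promoters of the list only lack these exact letters in this window.

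The route from the ER to the Golgi rose as well, by smaller steps. Of 32 genes of ER entry, COPII transport and N-glycosylation, 29 were called higher and 0 lower, with a median of 0.72. SEC11C, a catalytic subunit of the signal peptidase, had 150.4, 152 and 149 CPM at day 12, against 41.4, 45.9 and 43.2 CPM at day 9 (log2 change 1.77 ± 0.077). SSR3, of the translocon-associated complex, had 181, 194 and 185 CPM, against 68.8, 74.6 and 76.9 CPM. The cargo receptor TMED2 rose by 1.21 ± 0.056, and RPN1 and RPN2, subunits of the oligosaccharyltransferase, by 1.14 ± 0.049 and 1.05 ± 0.048. SEC62, SEC23A and SEC24C were the 3 members without a call.

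Every kept gene of cholesterol synthesis and uptake rose. When sterols are scarce in ER membranes, the SREBP factors move to the nucleus and switch on the enzymes of the pathway. These were 23 genes, of 24 listed, with a median of 1.72 and a range from 0.19 to 3.12. The other listed member did not pass the filter on low values. MVD (chromosome 16, 88651940 to 88663091), which makes isopentenyl diphosphate, had 298, 254 and 249 CPM at day 12, against 29.2, 28.1 and 32.3 CPM at day 9 (log2 change 3.12 ± 0.073, adjusted p = 1.07e-35). DHCR7, the last enzyme of the main route, had 435, 393 and 379 CPM, against 73.1, 68.2 and 73.8 CPM, and MSMO1, a sterol demethylase, had 294, 298 and 303 CPM, against 61.4, 55.2 and 53.5 CPM. FDFT1 and SQLE, which commit the pathway to sterols, rose by 1.77 ± 0.049 and 1.80 ± 0.056. The sterol-regulated brake INSIG1 rose by 2.12 ± 0.071 (picked after its values were seen). ABCA1, which exports cholesterol, fell, as given above. RNA levels do not measure sterols or the activity of SREBP factors, and the cause of these changes was not tested.

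Fatty acid synthesis followed with smaller changes. All 12 members were called higher, with a median of 0.89. FADS2, the first desaturase of polyunsaturated fatty acids, had 681, 625 and 582 CPM at day 12, against 244, 232 and 237 CPM at day 9 (log2 change 1.40 ± 0.049). SCD, which introduces the double bond of oleic acid, had 1305, 1262 and 1323 CPM, against 629, 598 and 557 CPM. ACSL3 rose by 1.36 ± 0.11, FADS1 by 0.97 ± 0.065 and ELOVL6 by 0.76 ± 0.044. The 3 libraries of a day lay close together in each of these genes.

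Genes that answer cAMP rose in part. Of 21 kept members of the cAMP and CREB list, 12 were called higher and 4 lower, with a median of 0.29. CREM, a cAMP-responsive factor that can feed back on its own pathway, had 191, 186 and 180.4 CPM at day 12, against 33.1, 34.3 and 32.98 CPM at day 9 (log2 change 2.44 ± 0.075, adjusted p = 1.01e-30). NR4A3, an orphan nuclear receptor, had 14.2, 16.7 and 17.9 CPM, against 1.56, 1.85 and 1.14 CPM, and VIP, a vasoactive peptide, had 253, 247 and 277 CPM, against 35.2, 33.5 and 35.3 CPM. TH, the rate-limiting enzyme of catecholamine synthesis, had 30.9, 24.3 and 23.5 CPM at day 12, against 1.39, 0.616 and 0.782 CPM at day 9 (log2 change 3.83 ± 0.17). The 4 members called lower were PRKAR2B, BDNF, DUSP1 and CITED2, with log2 changes of -0.58, -0.47, -0.90 and -0.90, and the calls of PRKAR2B, BDNF and DUSP1 were lost when single libraries were left out.

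The letters TGACGTCA, the palindromic cAMP response element (CRE), were in 389 of 11976 promoters (3.25%) and in 3 of the 19 promoters of the list, those of VGF, PCSK1 and DUSP1. CGA and VGF are shown as genes that hold the letters and rank among the leading rises or gains named above. They were picked after their values were seen, and the letters are not reported for every other leading gene. Both rose, so they do not stand for all genes with the letters, of which 61 were called higher and 173 lower. The stretches lie at chr6:87095193-87095278 for CGA and chr7:101165611-101165678 for VGF, both on the minus strand of GRCh38.p14, and capitals mark the element.
CGA: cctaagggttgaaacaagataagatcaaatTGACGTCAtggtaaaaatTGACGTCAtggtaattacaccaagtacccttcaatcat
VGF: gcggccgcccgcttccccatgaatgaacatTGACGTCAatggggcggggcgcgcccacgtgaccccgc

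CGA holds 2 copies, 142 and 124 bases before the annotated start, and VGF holds 1 copy 79 bases before it. The 3 list members with the letters did not share a direction: VGF rose by 3.39 ± 0.21, PCSK1 had a change of 0.17 ± 0.13 (adjusted p = 0.28) and DUSP1 fell by 0.90 (SE 0.30). Among all 389 genes with the letters, 61 were called higher and 173 lower, with a median of -0.23. Over all 11976 genes with a promoter, 2501 were called higher and 4112 lower, with a median of -0.105. Falls outnumbered rises in both sets, and the median was lower among genes with the letters. The cause was not tested.

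Immediate early factors, which cells make within minutes of a stimulus, rose in part, while JUN fell. Of 20 kept members, 10 were called higher and 2 lower (median 0.36). EGR1, a zinc finger factor, had 421, 505 and 496 CPM at day 12, against 81.9, 92.3 and 89.2 CPM at day 9 (log2 change 2.42 ± 0.18). EGR2 had 5.06, 5.03 and 4.44 CPM, against 0.114, 0.324 and 0.361 CPM, and EGR3 had 4.75, 3.67 and 4.801 CPM, against 0.256, 0.0324 and 0.301 CPM. FOS had 45.004, 41.9 and 44.2 CPM at day 12, against 13.8, 13.4 and 10.4 CPM at day 9, so that the AP-1 partners FOS and JUN moved in opposite directions. BTG2, an antiproliferative factor, was the other member called lower, by 1.08 (SE 0.10).

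Feedback genes of the MAP kinase cascade were mixed, with 5 higher and 3 lower of 13. The phosphatases DUSP4, DUSP5 and DUSP6, which switch MAP kinases off, rose by 0.86 ± 0.052, 2.11 ± 0.28 and 0.84 ± 0.047, and SPRY4 by 0.64 ± 0.085. DUSP5 had 5.56, 15.3 and 11.96 CPM at day 12, against 0.881, 1.49 and 2.65 CPM at day 9, with replicate 1 the lowest of day 12. ETV1, an ETS factor, fell by 1.02 (SE 0.097).

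Neuropeptide genes moved in both directions, with more rises than falls. Of 18 kept neuropeptide genes, 11 were called higher and 6 lower (median 0.64). Besides NPY, GAL and VIP, CARTPT, the precursor of the CART peptides, had 1.74, 1.23 and 1.72 CPM at day 12, against 0.0568, 0.0324 and 0.0602 CPM at day 9, and CCK, cholecystokinin, had 1.47, 2.59 and 1.96 CPM, against 0, 0.0972 and 0 CPM. Both were at or below the level of 3 reads in each library of day 9. Peptide genes with the opposite course were CALCA, CALCB, NTS, NXPH1, UCN and ADM, with log2 changes from -1.36 (NXPH1) to -0.39 (CALCA).

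Granule proteins were divided as well. Of 19 genes of dense-core granules and prohormone processing, 9 were called higher and 4 lower (median 0.17), and 9 and 1 after rescaling. CHGB, chromogranin B, had 2378, 2323 and 2405 CPM at day 12, against 620.4, 664 and 629.9 CPM at day 9 (log2 change 1.89 ± 0.057), and SCG2, secretogranin II, had 1754, 1705 and 1765 CPM, against 467, 442 and 442 CPM. PTPRN, a membrane protein of the granules, had 1762, 1634 and 1539 CPM, against 306, 258 and 275 CPM. CHGA, chromogranin A, ran against them with a log2 change of -0.48 ± 0.16 (picked after its value was seen), and SCG3, PCSK1N and SYT7 were the other members called lower.

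In the catecholamine list the synthesis enzymes TH, DDC and DBH rose, while several lineage factors fell. Counts were 10 higher and 10 lower of 24. DDC, which makes dopamine, had 131, 141 and 149.6 CPM at day 12, against 36.1, 32.8 and 32.6 CPM at day 9 (log2 change 2.02 ± 0.085). SLC18A1, a vesicular monoamine transporter, had 144, 131 and 133 CPM, against 29.4, 24.02 and 25.6 CPM, and rose by 2.33 ± 0.063. SOX11, a factor of sympathetic development, had 745, 815 and 830.3 CPM, against 400.32, 409 and 394 CPM, and was called higher. In contrast, HAND1 and ISL1 had log2 changes of -0.91 and -0.68, both called lower, while PHOX2A (0.21 ± 0.37) and HAND2 (0.020 ± 0.066) were not called (HAND1, PHOX2A and HAND2 were picked after their values were seen).

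Cholinergic genes rose in part, 8 of 13, with 2 called lower, CHRNA7 and CHRM3, of which 0 stayed lower after rescaling. CHRNB4, a subunit of the ganglionic nicotinic receptor, had 240.5, 225 and 212 CPM at day 12, against 86.7, 80.2 and 87.2 CPM at day 9 (log2 change 1.40 ± 0.064). Its partner CHRNA3 rose by 0.51 ± 0.13, the muscarinic receptors CHRM1 and CHRM4 by 0.95 ± 0.11 and 0.85 ± 0.22, and ACHE, which splits acetylcholine, by 0.60 ± 0.066. CHAT, which makes acetylcholine, had 1.04, 0.432 and 0.920 CPM at day 12, against 0.853, 1.56 and 1.56 CPM at day 9 (log2 change -0.37 ± 0.19, adjusted p = 0.097). This gene was picked after its values were seen.

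Structural genes of the neuron moved in both directions. Of 23 neuronal cytoskeleton genes, 5 were called higher and 6 lower, a balance that turned to 10 and 5 after rescaling. The share called was 47.8%, against 54.4% over all genes. MAPT, the microtubule protein tau, had 217, 198 and 186 CPM at day 12, against 83.2, 70.8 and 79.02 CPM at day 9 (log2 change 1.36 ± 0.071), and TUBB2A, a beta tubulin, had 710.2, 666 and 627 CPM, against 209, 213 and 206 CPM. TUBA1A rose by 0.77 ± 0.048. DCX, doublecortin, a marker of young neurons, had 65.5, 67.2 and 69.1 CPM at day 12, against 161, 156 and 149.6 CPM at day 9, and STMN4 fell by 1.58 (SE 0.063).

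Growth cone genes were 6 higher and 4 lower of 18, and 10 and 2 after rescaling. GAP43, a protein of growing axon tips, had 392, 385 and 391 CPM at day 12, against 108, 102 and 100.02 CPM at day 9 (log2 change 1.90 ± 0.048, adjusted p = 2.35e-34). NFASC, CNTN2 and RTN4 rose by 1.02 ± 0.083, 0.86 ± 0.16 and 0.71 ± 0.13, and RTN1 fell by 0.34 (SE 0.042). Axon guidance genes went 9 higher and 11 lower of 29 (11 and 11 after rescaling), a share called of 69.0%, against 54.4% over all genes. SLIT2, a repellent, had 33.6, 30.9 and 33.4 CPM, against 8.01, 7.88 and 7.88 CPM at day 9, while its relative SLIT1 had 14.3, 16.3 and 12.04 CPM, against 35.8, 28.8 and 26.7 CPM. SEMA3A rose by 1.77 ± 0.15, and UNC5C and PLXNA4 fell by 0.52 (SE 0.052) and 0.67 (SE 0.083).

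Synaptic vesicle genes rose more often than they fell, 15 against 4 of 29 (median 0.35). SYT1, the calcium sensor of release, had 149, 139.6 and 147 CPM at day 12, against 86.6, 82.04 and 79.6 CPM at day 9 (log2 change 0.80 ± 0.049), and SYP, synaptophysin, had 123, 117 and 117 CPM, against 70.7, 65.96 and 72.6 CPM. SYT5 and RAB3B rose by 0.72 ± 0.078 and 0.59 ± 0.049, and SYT11 fell by 0.43 (SE 0.041). RIMS1 and BSN, of the active zone, were also called lower.

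Postsynaptic and adhesion genes were 7 higher and 4 lower of 22. NLGN1, a neuroligin, had 12.9, 13.1 and 14.6 CPM, against 4.04, 3.18 and 4.63 CPM at day 9, and CAMK2A, a calcium-dependent kinase, 2.43, 3.05 and 1.48 CPM, against 0.0568, 0.0324 and 0.241 CPM. DLG2 rose by 0.75 ± 0.094, HOMER2 fell by 0.83 (SE 0.13), and LRRTM2 fell as given above. Voltage-gated channel genes were 9 higher and 5 lower of 31, with SCN9A, a sodium channel of sympathetic and sensory neurons, up by 0.71 ± 0.064 and KCND1 by 0.68 ± 0.12, and with CACNA2D2 down by 0.37 (SE 0.090). Glutamate and GABA receptor genes were 3 higher and 6 lower of 19. GABRD, a GABA-A subunit, had 8.07, 6.81 and 8.88 CPM, against 1.19, 0.875 and 1.81 CPM at day 9, and GABBR1 rose by 0.60 ± 0.094. GRIA2, GRIA4 and GRIK4, glutamate receptor subunits, fell by 1.21 (SE 0.15), 1.19 (SE 0.23) and 1.03 (SE 0.084). The shares called higher in these lists lie closer to the background of 20.7% than those of the ER and lipid lists.

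Transcription factors of neuronal development fell more often than they rose. Of 23 kept, 2 were called higher, NEUROD1 and RUNX1T1, and 14 lower (median -0.44). MYT1, a zinc finger factor of neuronal progenitors, had 16.997, 13.1 and 15.2 CPM at day 12, against 53.1, 51.4 and 49.8 CPM at day 9 (log2 change -1.71 ± 0.11). PROX1, EBF1, SATB1 and LMO3 had log2 changes of -1.03 ± 0.064, -1.01 ± 0.087, -0.93 ± 0.11 and -1.47 ± 0.16. Neuronal RNA-binding proteins were 3 higher and 9 lower of 20, and 5 and 6 after rescaling. ELAVL4, a stabiliser of neuronal mRNAs, had 1089, 1066 and 1101 CPM, against 827, 832 and 805 CPM at day 9, while ELAVL2 had 29.6, 24.02 and 29.4 CPM, against 54.8, 61.3 and 53.5 CPM. PTBP1, a repressor of neuronal splicing, fell by 0.37 (SE 0.050), and MBNL2 by 0.88 (SE 0.17).

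The ID proteins, which block the DNA binding of differentiation factors and answer BMP signals, fell. ID3 had 42.8, 42.2 and 39.5 CPM at day 12, against 203, 172 and 198 CPM at day 9 (log2 change -2.17 ± 0.088, adjusted p = 5.09e-26). ID1 had 13.9, 14.3 and 16.04 CPM, against 69.1, 53.7 and 66.5 CPM, and ID2 had 23.7, 22.4 and 24.1 CPM, against 65.2, 53.6 and 58.8 CPM, and the receptor BMPR1B fell by 1.09 (SE 0.082) and SMAD6 by 0.87 (SE 0.21). Of 13 members of the ID, BMP and TGF-beta list, 8 were called lower and 1 higher, BMP7. After rescaling 6 were called lower, and with edgeR 5.

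Retinoic acid genes did not move together, with 4 higher and 6 lower of 15. CRABP1, which binds retinoic acid in the cytoplasm, had 342, 332 and 336 CPM at day 12, against 21.97, 22.4 and 22.3 CPM at day 9 (log2 change 3.86 ± 0.079, adjusted p = 4.23e-38). STRA6, a retinol importer, had 555, 500.38 and 467 CPM, against 115, 98.6 and 109.9 CPM, and ALDH1A3, which makes retinoic acid, had 17.4, 16.1 and 14.8 CPM, against 2.36, 3.11 and 1.81 CPM. RARB, a receptor, and CYP26A1, which degrades retinoic acid, were lower. RARB had 122, 127 and 126 CPM at day 12, against 277, 267 and 248 CPM at day 9. CYP26A1 had 744, 702 and 679.9 CPM, against 1448, 1315 and 1287 CPM.

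Receptors of neurotrophins and of GDNF were 5 higher and 4 lower of 14. NTRK2, the BDNF receptor, had 304, 298 and 314 CPM at day 12, against 480.2, 455 and 444 CPM at day 9 (log2 change -0.59 ± 0.080), and NGFR, the shared neurotrophin receptor, had 28.7, 24.7 and 21.5 CPM, against 11.1, 9.14 and 8.37 CPM. GFRA3 rose by 1.04 ± 0.13, SORCS2 by 1.06 ± 0.18, and GFRA1 fell by 1.54 (SE 0.17). Glucocorticoid and progesterone response genes were 5 higher and 4 lower of 12. SGK1, a kinase, had 79.3, 82.7 and 94.1 CPM, against 21.9, 19.2 and 19.1 CPM at day 9, DDIT4 rose by 0.67 ± 0.11 and MT1X by 0.80 ± 0.15, while GLUL and TXNIP fell by 0.82 (SE 0.053) and 1.37 (SE 0.095). Notch genes were 4 higher and 4 lower of 15 (5 and 3 after rescaling), with HES6 at 287, 351 and 327 CPM, against 87.5, 105 and 102 CPM at day 9, HEY1 up by 1.08 ± 0.085, NOTCH3 by 0.76 ± 0.14 and DLL3 by 0.50 ± 0.14. HES1, the classical Notch target, had 4.29, 8.91 and 8.24 CPM at day 12, against 13.8, 20.97 and 24.4 CPM at day 9 (log2 change -1.36 ± 0.33).

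Genes of DNA replication fell without exception. All 30 members were called lower (background 33.7%), with a median of -0.94 and a range from -1.90 to -0.22, and 29 after rescaling. MCM5 had 77.5, 73.96 and 77.7 CPM at day 12, against 243, 245 and 238 CPM at day 9 (log2 change -1.65 ± 0.054, adjusted p = 7.67e-30). MCM7, another subunit of the replicative helicase, had 274, 249 and 240.3 CPM, against 743, 690.3 and 694 CPM. MCM2 and MCM3 fell by 1.59 (SE 0.072) and 1.01 (SE 0.053).

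Mitotic genes fell by less, 21 of 23 with a median of -0.62, and UBE2C and PRC1 were not called. NDC80, of the kinetochore, had 19.7, 19.4 and 22.04 CPM at day 12, against 41.4, 44.3 and 42.4 CPM at day 9, and KIF20A, CENPF, BIRC5 and TPX2 fell by 0.83 (SE 0.083), 0.76 (SE 0.068), 0.76 (SE 0.068) and 0.64 (SE 0.065). The day 12 mean of these 4 genes was 0.553, 0.586, 0.590 and 0.641 times that of day 9. Of 16 CDK inhibitor and cell cycle exit genes, 3 were called higher and 7 lower. CDKN1A, the inhibitor p21, had 294, 259.7 and 251 CPM at day 12, against 154, 129.6 and 136 CPM at day 9 (log2 change 0.94 ± 0.080). CDKN1B, the inhibitor p27, fell by 0.48 (SE 0.054), RBL2 by 1.17 (SE 0.11) and BTG1 by 1.65 (SE 0.13). CCND1, a cyclin and not an inhibitor, is counted among the 7 and fell by 0.86 (SE 0.045).

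The p53 target list went down with 11 of 20 lower and 2 higher (median -0.38). The members called higher were CDKN1A and GDF15, a secreted stress signal, which had 1229, 1192 and 1144 CPM at day 12, against 225, 194 and 199 CPM at day 9 (log2 change 2.53 ± 0.11). XPC, BTG2 and CCNG1 had changes of -0.65 ± 0.072, -1.08 ± 0.10 and -0.82 ± 0.071. The MYC list had 9 of 18 lower and 2 higher, with the nucleolar proteins NPM1 and FBL lower by 0.49 (SE 0.054) and 0.79 (SE 0.056) and the MYC antagonists MXD1, MXD4 and MXI1 by 1.47 (SE 0.18), 1.48 (SE 0.21) and 0.99 (SE 0.16).

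All 32 genes of the ribosomal protein list were called lower, with a median of -0.86, and 31 after rescaling. RPL4 had 1632, 1591 and 1527 CPM at day 12, against 3839.5, 3865 and 3749.8 CPM at day 9 (log2 change -1.27 ± 0.051), and RPL14 had 304, 283 and 285 CPM, against 604, 686 and 646 CPM. RPL5, RPL6 and RPL15 fell by 0.99 (SE 0.066), 0.91 (SE 0.062) and 0.92 (SE 0.055). GAS5 and SNHG1, which host small nucleolar RNAs and share the growth-regulated 5′ motif of ribosomal protein genes, fell by 1.31 (SE 0.075) and 0.91 (SE 0.11). Ribosomal protein genes have many processed copies in the genome, and how reads were shared among these is not given in the sources used here.

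Glycolysis genes rose more often than they fell. Of 21 glycolysis genes, 14 were called higher and 2 lower, PFKM and SLC16A1 (median 0.37). ALDOC, an aldolase, had 58.5, 51.9 and 52.1 CPM at day 12, against 13.96, 13.8 and 14.8 CPM at day 9, and PFKP, a phosphofructokinase, had 242, 234 and 244 CPM, against 91.97, 105 and 104 CPM. SLC16A3, which exports lactate, rose by 1.79 ± 0.13, ENO1 by 0.83 ± 0.043 and PKM by 0.71 ± 0.047. Hypoxia targets as a list were 6 higher and 5 lower of 18. BHLHE40, a repressor that also answers cAMP and growth factors, had 42.4, 39.6 and 39.5 CPM, against 3.297, 3.63 and 5.06 CPM at day 9 (log2 change 3.07 ± 0.14), P4HA1 and P4HA2 rose by 0.96 ± 0.093 and 0.98 ± 0.080, and KDM3A and BNIP3L fell by 1.05 (SE 0.12) and 0.47 (SE 0.060).

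Respiratory chain genes encoded in the nucleus moved in both directions, and mitochondrially encoded transcripts rose in part. Of 28 nuclear-encoded respiratory chain genes, 9 were called higher and 8 lower (11 and 7 after rescaling). The share called was 60.7%, against 54.4% over all genes. NDUFB9 and ATP5F1B rose by 0.47 ± 0.079 and 0.26 ± 0.047, and UQCRB and ATP5F1A fell by 0.70 (SE 0.097) and 0.50 (SE 0.048). Of 13 mitochondrially encoded transcripts, 6 were called higher, among them ND5 by 0.62 ± 0.074, ND6 by 0.62 ± 0.093, COX1 by 0.51 ± 0.14, CYTB by 0.35 ± 0.082 and ND4 by 0.24 ± 0.079. They made up 1.31%, 1.26% and 1.20% of reads at day 12, against 1.04%, 1.05% and 1.20% at day 9, so the totals of the days touch in 1 library.

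Among stress programs, NRF2 targets rose in 14 of 22, with FTL, ferritin light chain, as the 1 member called lower (median 0.38). NQO1, a quinone reductase, had 109, 95.2 and 109 CPM at day 12, against 17.2, 17.9 and 19.5 CPM at day 9 (log2 change 2.45 ± 0.11). TKT, a transketolase, EPHX1, an epoxide hydrolase, and PIR rose by 1.19 ± 0.058, 0.79 ± 0.063 and 0.82 ± 0.073.

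The ATF4 and amino acid list was divided, 7 higher and 9 lower of 20. SLC3A2, a subunit of amino acid transporters, rose by 0.91 ± 0.064, whereas PHGDH, the first enzyme of serine synthesis, had 196, 193 and 168 CPM at day 12, against 393, 341 and 383 CPM at day 9, and SHMT2 and MTHFD2 of mitochondrial one-carbon metabolism fell by 0.96 (SE 0.076) and 0.67 (SE 0.069). Cytosolic heat shock genes were 11 higher and 2 lower of 17 (12 and 0 after rescaling), the members called lower being HSPH1 and DNAJB1. BAG3, a co-chaperone, had 17.6, 16.6 and 15.6 CPM, against 4.09, 5.09 and 3.43 CPM at day 9, HSPB1 rose by 0.80 ± 0.066, HSPB8 by 1.02 ± 0.17, HSPA1A by 0.61 ± 0.10 and HSPA8 by 0.37 ± 0.041. HSPA1A and HSPA1B are near-identical copies, so their split is uncertain.

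Selenoprotein genes were 10 higher and 2 lower of 18 (11 and 0 after rescaling), the falls being GPX4 and TXNRD2. SELENOS and SELENOK, both of the ER membrane, had log2 changes of 1.28 ± 0.064 and 0.95 ± 0.075, SELENOW one of 1.32 ± 0.070, SELENOM one of 0.96 ± 0.078 and GPX3 one of 0.70 ± 0.056. Lysosome and autophagy genes were 13 higher and 3 lower of 25. WIPI1 had 26.7, 22.7 and 25.7 CPM at day 12, against 8.07, 8.95 and 6.98 CPM at day 9, GPNMB had 12.01, 9.65 and 9.72 CPM, against 2.67, 2.56 and 2.59 CPM, and GABARAPL1 and PSAP rose by 0.85 ± 0.067 and 0.35 ± 0.049. Iron genes were 3 higher and 2 lower of 10: STEAP3 rose by 1.16 ± 0.13, ACO1 by 0.41 ± 0.099 and FTH1 by 0.27 ± 0.076, and SLC11A2 fell by 0.45 (SE 0.11) and FTL by 0.35 (SE 0.068).

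Adhesion genes rose more often than they fell. Of 27 integrin, laminin and basement membrane genes, 14 were called higher and 4 lower (median 0.31). ITGA7 and ITGA6, laminin receptors, had 38.01, 38.2 and 38.4 CPM and 9.503, 11.04 and 12.96 CPM at day 12, against 14.7, 8.62 and 11.2 CPM and 4.75, 3.76 and 2.41 CPM at day 9. ITGA3, another laminin receptor, rose by 1.02 ± 0.13, and AGRN, a basement membrane proteoglycan, by 0.90 ± 0.11. ITGA1, a collagen and laminin receptor, had 106, 112 and 122 CPM at day 12, against 259, 237 and 249 CPM at day 9 (log2 change -1.12 ± 0.14).

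YAP target genes, which follow cell spreading and tension, fell in 8 of 15 and rose in 2, F3 and TEAD4. Relative to day 9, the list median was -0.41 at day 6 and -0.54 at day 12, so day 9 lay above both. The median of the same step was -0.74 at 0.16 µM Pb, -0.35 at 1.26 µM and -0.022 at 10 µM. At 10 µM, 4 members were called higher and 4 lower. CCN2, a matricellular protein, had 0.270, 0 and 0.0800 CPM at day 12, against 3.47, 5.32 and 5.24 CPM at day 9 (log2 change -2.33 ± 0.15), and its relative CCN1 had 4.21, 3.42 and 3.36 CPM, against 11.7, 12.3 and 10.5 CPM. AMOTL2 and CRIM1 fell by 1.56 (SE 0.11) and 1.80 (SE 0.18), and F3, tissue factor, rose by 1.02 ± 0.15. CCN2 was at or below the level of 3 reads in 2 of the 3 libraries of day 12.

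Mesenchymal and substrate-adherent (S-type) markers were 8 higher and 11 lower of 21 (median -0.25), and 8 and 9 after rescaling. The members named next mostly rose, although more members of the list were called lower than higher. LGALS1, galectin 1, had 935, 857 and 882 CPM at day 12, against 163, 179.6 and 166 CPM at day 9 (log2 change 2.39 ± 0.089). TWIST2 had 9.31, 11.8 and 11.002 CPM, against 1.11, 0.324 and 1.32 CPM, S100A6 and VIM rose by 1.17 ± 0.10 and 0.92 ± 0.093, and FN1, fibronectin, had 8.499, 10.98 and 8.44 CPM, against 30.6, 26.4 and 29.4 CPM. Collagen and matrix genes were 7 higher and 3 lower of 20: COL1A1, COL6A2, COL18A1 and LUM rose by 1.63 ± 0.20, 0.77 ± 0.058, 0.84 ± 0.15 and 0.79 ± 0.12, and VCAN, versican, fell by 0.71 (SE 0.082). Interferon and NF-kB genes were 8 higher and 7 lower of 23. HLA-C, which shares much of its sequence with its relatives, rose by 1.20 ± 0.081, IRF7 rose by 0.78 ± 0.074, and the chemokine CXCL8 had 0.309, 0.185 and 0 CPM at day 12, against 3.69, 2.37 and 3.31 CPM at day 9.

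Markers of other cell types were few among the kept genes. Of 16 glial and Schwann cell markers, 6 passed the filter, ERBB3 and S100B were called higher and none lower, and 5 of the 16 had no read in the 6 libraries, among them OLIG2 and FABP7. Their summed level ran from 23.8 to 25.4 CPM at day 12, against 17.2 to 20.3 CPM at day 9, with SLC1A2 alone at 14.1, 12.7 and 13.2 CPM, against 12.8, 11.8 and 12.2 CPM. Of 22 epithelial, blood, endothelial and muscle markers, 6 passed the filter, EPCAM was called higher (2.51, 2.81 and 2.601 CPM at day 12, against 0.881, 1.07 and 0.662 CPM at day 9) and none lower, and 9 had no read. Their summed level ran from 32.2 to 44.01 CPM at day 12, against 25.04 to 36.4 CPM at day 9. KRT10, a keratin of the epidermis, gave most of it, with 27.9, 37.8 and 39.9 CPM at day 12, against 21.9, 33.2 and 28.8 CPM at day 9, and was not called (named after its values were seen). Of 16 nuclear-retained and histone transcripts, 11 were called lower and 2 higher, MALAT1 and KCNQ1OT1. The GC and length correction is void for this list, since only 5 of its 16 tested members had a GC content and length. Of those, 2 were called lower and 2 higher with it. The replication-dependent histone genes H2AC6 and H2BC12 fell by 1.44 (SE 0.11) and 0.86 (SE 0.14). The summed level of that list ran from 1487 to 1619 CPM at day 12, against 1867 to 2331 CPM at day 9, and its part in the results was not tested.

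In the list that checks the tissue, 6 of 16 neuroblastoma and sympathoadrenal genes were called higher and 8 lower, and 6 and 6 after rescaling. ISL1, a factor of sympathetic neurons, had 156, 145 and 155 CPM at day 12, against 251, 249 and 232 CPM at day 9, and NEFL, a neurofilament subunit, had 421, 448 and 447 CPM, against 265, 244 and 238 CPM. TUBB3, a widely used neuronal tubulin marker, had 9.04, 10.1 and 10.5 CPM at day 12, against 6.74, 8.43 and 8.305 CPM at day 9 (picked after its values were seen).

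The steps before and after place this interval in the course. From day 6 to day 9, 785 of 15263 genes (5.14%) were called, and from day 12 to day 15 it was 5652 (37.0%). From day 15 to day 18, across 2 prefixes of the library names, it was 5079 (33.3%). The neighbouring steps share libraries with this one, so their changes are given side by side and not related to each other. Relative to day 9, the median of the ER folding list was -0.076 at day 6, 1.54 at day 12, 0.82 at day 15 and 0.20 at day 18, and that of the cholesterol list -0.11, 1.72, 1.03 and 1.06. Both lists were highest at day 12. Replication genes stood at 0.075, -0.94, -1.09 and -1.06, and ribosomal protein genes at -0.16, -0.86, -0.65 and -0.40 on the same days.

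**Figure D4:**
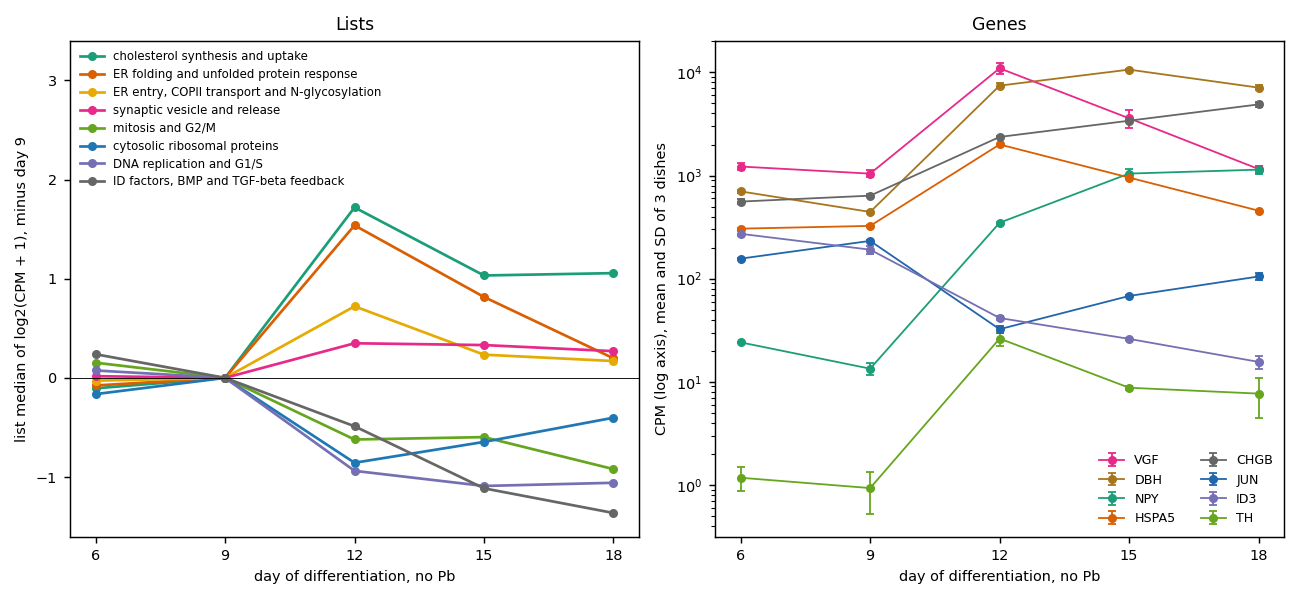
Left, median of log2(CPM + 1) of 8 gene lists at each of 5 days without Pb, minus day 9. Right, CPM on a log axis of 8 genes (mean and SD of 3 dishes). ER and cholesterol lists peak at day 12, replication genes stay low, and NPY and CHGB have higher means at days 15 and 18 than at day 12. The library names of day 18 carry another prefix.

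Single genes took different courses over days 6, 9, 12, 15 and 18. VGF peaked at day 12, with 1223 ± 102, 1044 ± 85.02, 10972 ± 1306, 3594 ± 717 and 1158 ± 84.02 CPM (SD, n = 3 each), and so did TH, with 1.17 ± 0.309, 0.930 ± 0.409, 26.2 ± 4.04, 8.75 ± 0.413 and 7.67 ± 3.24 CPM. NPY had its higher means after day 12, with 24.1 ± 0.222, 13.4 ± 1.69, 349 ± 7.002, 1045 ± 124 and 1141 ± 101 CPM, and the means of days 15 and 18 differed by less than the SD of either. CRABP1 had 570.0 ± 46.6 CPM at day 15 and 641 ± 68.5 CPM at day 18, with overlapping ranges of mean ± SD, and CHGB had 3403 ± 95.1 and 4897 ± 283 CPM. Values of day 18 come from libraries whose names carry another prefix. The epithelium, blood, endothelium and muscle markers had a median of 2.41 relative to day 9 on that day, against -0.099 at day 12 and -0.10 at day 15. The part of these in the day 18 values was not tested.

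DCX, which was lower at day 12, had 145 ± 7.99, 156 ± 5.896, 67.3 ± 1.79, 232 ± 14.2 and 335 ± 12.8 CPM over the same days, so its lowest mean was at day 12. STMN4 and RTN1 had the same shape, with lowest means of 127 ± 7.26 and 646 ± 22.9 CPM at day 12 and day 18 means of 345 ± 35.99 and 1267 ± 79.8 CPM. JUN was lowest at day 12 as well, with 156 ± 2.75, 232 ± 4.36, 32.3 ± 2.75, 67.9 ± 1.81 and 105 ± 7.596 CPM, while ID3 kept falling to 15.6 ± 2.31 CPM at day 18.

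The same step was measured again in 18 other libraries, 3 per day at each Pb dose, which share no library with the step described above, though all dishes belong to 1 experiment. The spread of each gene was estimated once over all 60 libraries, so the calls at the doses are not independent tests. It gave 8055 calls (52.8%) at 0.16 µM, 8417 (55.1%) at 1.26 µM and 8403 (55.1%) at 10 µM. Of the 8303 genes called without Pb, 6975, 7146 and 6828 were called in the same direction at 0.16, 1.26 and 10 µM, which is 84.0%, 86.1% and 82.2% of them and 86.6%, 84.9% and 81.3% of the genes called at those doses. Only 2, 2 and 6 genes were called in opposite directions. Across the 15263 genes, which are not independent replicates, the correlation of the change with that without Pb was r = 0.955, 0.955 and 0.930.

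The leading lists changed at the highest dose too. At 10 µM, 20 of 22 ER folding genes and all 23 cholesterol genes were called higher, and all 30 replication genes were called lower, with medians of 1.53, 1.67 and -1.18. HSPA5 changed by 2.63 ± 0.047 at 10 µM, DBH by 4.11 ± 0.065 and ECEL1 by 7.13 ± 0.26.

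A test of the step by Pb over the 3 doses called 125 genes (0.819%). ANXA2, a membrane-binding annexin, had the smallest p, with a change of 0.91 ± 0.10 without Pb, 0.57 ± 0.10 at 0.16 µM, 1.43 ± 0.10 at 1.26 µM and 2.39 ± 0.10 at 10 µM (adjusted p = 4.59e-12). Its day 9 mean was 30.6 ± 4.52 CPM at 10 µM, against 90.2 ± 2.87 CPM without Pb, whereas the day 12 means were 164 ± 2.28 CPM and 171 ± 7.83 CPM. The larger step at 10 µM was thus measured from a lower start. TAC1, the precursor of substance P, had 2.31 ± 0.529 CPM at day 12 with 10 µM, against 0.490 ± 0.0561 CPM without Pb, and no read at day 9 in the 6 libraries of these groups, so that its step is the level at day 12 alone.

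KRT18, a keratin, was lower at day 12 without Pb (log2 change -1.08 ± 0.14), while its change at 10 µM was 0.068 ± 0.14 with an adjusted p of 0.711. At day 9 KRT18 had 3.46 ± 0.340 CPM with 10 µM, against 18.1 ± 1.28 CPM without Pb. CYP24A1 had 1.97 ± 0.539 CPM at day 9 with 10 µM, against 9.42 ± 0.850 CPM without Pb, and at day 12 its means were 0.00866 ± 0.0150 CPM and 0.137 ± 0.0899 CPM. With day 12 at about the level of 3 reads or below and unequal starts, the difference between its steps depends on the added 1 CPM, and no order of the steps is read from it. TFPI2 changed by 6.12 ± 0.076 at 10 µM, against 5.29 ± 0.076 without Pb, with day 9 means of 17.2 ± 0.643 CPM and 25.7 ± 3.69 CPM. HMOX1, heme oxygenase, had a change of 1.67 ± 0.16 without Pb, -0.14 ± 0.16 at 0.16 µM, 0.17 ± 0.16 at 1.26 µM and 1.04 ± 0.16 at 10 µM. Its day 9 means were 1.405 ± 0.623, 8.03 ± 0.745, 7.06 ± 0.941 and 3.17 ± 1.101 CPM in the same order.

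**Figure D5:**
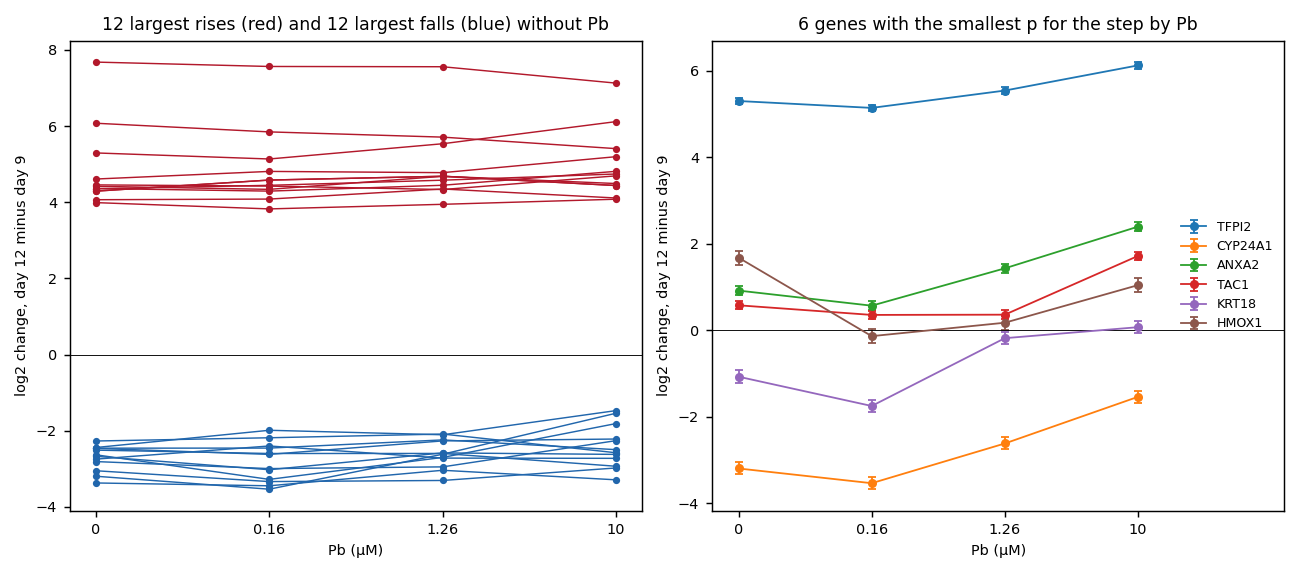
Log2 change (day 12 minus day 9) at 0, 0.16, 1.26 and 10 µM Pb. Left, the 12 largest rises (red) and 12 largest falls (blue) without Pb, which keep their sign at each dose; right, the 6 genes with the smallest p for the step by Pb, with SE, of which KRT18 and HMOX1 come near or cross 0; CYP24A1 at day 12 and TAC1 at day 9 are near or at 0 reads.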

How the data were processed

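RNA-seq was measured in 60 libraries of SH-SY5Y cells, and the authors deposited 1 table of CPM (reads scaled to 1e+06 per library) for 37334 genes. FastQC, MultiQC, STAR, featureCounts and the build GRCh38 are named per the submitters' processing notes. Versions, the gene annotation, strand use and the treatment of reads with several positions are not given in the sources used here. Every column summed to 1e+06, and CPM steps gave whole reads for 100% of values within 0.01 read, from which depths of 16594259 to 50539599 reads were recovered.

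Of these, 15263 reached 1 CPM in 3 or more libraries and were tested on log2 of the deposited CPM + 1 with limma 3.58.1 (trended variance, R 4.3.3). The model held the means of all 20 groups, and p-values were adjusted by Benjamini-Hochberg over all 15263 genes (threshold 0.05, two-sided). Alternatives were a pseudocount of 0.25, no filter, median-ratio rescaling, only the groups compared, no day 18, a replicate block, each library left out, and edgeR 4.0.16 (quasi-likelihood) on recovered reads. Correction for GC content and transcript length, and identical rows counted once, were added after the data were seen. The fit was tested on simulated data.

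Named genes were the 12 largest rises and falls past the threshold without overlap and with at least 5 CPM in 1 group, the 6 largest gains and losses in CPM, up to 5 members with the smallest p of each of 50 lists, and the 6 smallest p for the step by Pb. Genes named to complete a count, or for their promoter, were chosen after their values were seen. Some genes that the rule takes in are not reported here. Members and lists were chosen with earlier results of these data known. Promoters and coordinates are from RefSeq (GRCh38.p14), where 36621 symbols matched. A level of 3 reads is used as the lowest readable one and covers counting error only.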

Additional observations from a re-analysis of the deposited data

Results flagged for a closer look

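The step differed with Pb for 125 genes by a test of the difference over the 3 doses (limma, adjusted over all genes). The smallest adjusted p-values were 4.59e-12 for ANXA2, 8.39e-08 for TFPI2, 3.35e-09 for CYP24A1, 5.67e-10 for TAC1, 4.13e-08 for KRT18 and 1.29e-06 for HMOX1. The step at 10 µM minus the step without Pb was 1.48 ± 0.14 for ANXA2, 0.82 ± 0.11 for TFPI2, 1.14 ± 0.20 for KRT18 and -0.63 ± 0.23 for HMOX1 on the log2 scale. For CYP24A1, near 0 reads at day 12, and TAC1, without a read at day 9, the difference of steps depends on the added 1 CPM and is not given.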

How the results depend on the processing

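For the step without Pb the count of calls ran from 7909 to 8543 over all alternatives other than leaving out a library, and from 7561 to 7842 without 1 library. With a replicate block it was 8331, against 8303 without. The deviations of same-numbered libraries correlated at r = 0.31, 0.045 and 0.0962, and those of differently numbered ones at -0.248 to 0.199. So few values cannot tell whether the numbers pair the dishes. With only the groups compared in the fit, day 9 against day 6 gave 522 calls, day 18 against day 15 gave 2455 and the step by Pb 251, against 785, 5079 and 125. Without 1 library, day 9 against day 6 gave 475 to 749 calls and the step by Pb 85 to 147. Among named genes, ERN1 turned to 0.066 with rescaling, 0.048 with edgeR, 0.060 with GC and length correction and lay between -0.18 and 0.034 without 1 library. SEC62 turned to 0.044, 0.026 and 0.088 under the first 3 of these, HAND2 to -0.026 and HSPH1 to 0.024 with GC and length correction, and PHOX2A lay between -0.026 and 0.59 without 1 library. The cause was not tested. GC and length correction covered 14132 of the tested genes (92.6%). Calls of ATF6, BDNF, BMP7, CALCA, CHRM3, CHRNA7, DUSP1, HSPA1B, HSPH1, KCNQ1OT1, ND4, PCSK1N, PRKAR2B, S100B, SETD3, TRIM5, TUBB3, TXNRD2, UCN and ZNF143 were lost without 1 library or another. Depth limits genes near 3 reads.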
